A study of Oryctolagus cuniculus with 18 samples.

Results

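The comparison described here was made in the rabbit retina between eyes filled with the polymer poly(CEP) for 2 months and eyes that had not been operated on. Samples were taken by their labels, giving 3 retina samples at 2 months and 3 non-operated retina samples, which were 6 of the 18 samples of the series. Gene counts were listed for 29587 Ensembl rabbit genes, of which 15878 had enough counts to be tested and 13709 did not. No count was recorded in any of the 6 samples for 7077 genes. The series also held retina samples at 1 month, which were fitted together with these 6 samples, and the underlying tissue of the same design, which the labels call retinal pigment epithelium and the study's text RPE-choroid.

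The rabbits were male New Zealand White animals, given as 4 to 6 months old when bought. Their age when the tissue was taken was not given, so the ages of the groups could not be compared. In the treated eyes the vitreous was removed by vitrectomy and replaced with poly(CEP), without induction of proliferative vitreoretinopathy (PVR), and topical tobramycin and dexamethasone were given after surgery. The control eyes had no surgery and no polymer, and no eye with vitrectomy alone was analysed here. Surgery, polymer and the drugs given with them therefore cannot be told apart. The study's PVR surgery also used triamcinolone injected into the vitreous, and whether these eyes received it was not stated. The sources used here do not say which eyes were sequenced. If they were those of the study's list of animals, the 2-month eyes were fellow eyes of eyes operated on for the PVR model. The study's methods call the 3 samples of each condition biological replicates. Neither they nor the labels say that these came from separate animals, so the p-values measured the spread between these samples.

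The retina is the layered neural tissue that turns light into nerve signals, and it lies against the RPE, a pigmented sheet that nourishes the photoreceptors, which in turn lies on the vascular choroid. Vitrectomy removes the gel in front of the retina, and the space is then filled with a tamponade that holds the retina in place. Poly(CEP) is a thermogelling polymer whose chains assemble into micelles, and the study examined it together with NRF2, a transcription factor that switches on antioxidant genes. The identifiers in the files were not paired with gene names. The tissue labels could therefore not be checked against defining markers, and neither the NRF2 target genes nor the marker lists of other cell types could be read out, so the genes are described below by level, by tissue preference and by their behaviour across samples.

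Library depth was similar in both groups. The 2-month samples held 28053166, 22335005 and 26805866 counts on genes, and the non-operated samples 32605821, 26732449 and 29647394. Between 47.09% and 48.74% of all reads fell on genes in these 6 samples. Replicate 3 at 2 months stood apart from replicates 1 and 2. In a principal component analysis of the 9 retina samples the first component held 54.1% of the variance, with the non-operated samples at 70.0, 63.2 and 67.6, the 2-month replicates 1 and 2 at -48.7 and -59.2, and replicate 3 at 11.3. The 1-month samples lay at -34.6, -28.0 and -41.7, so that replicate 3 at 2 months was the treated retina sample closest to the controls on this axis. On the second component, with 11.8% of the variance, 1-month replicate 3 stood apart at -60.2, against 16.2 and 20.4 for its partners.

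**Figure D1:**
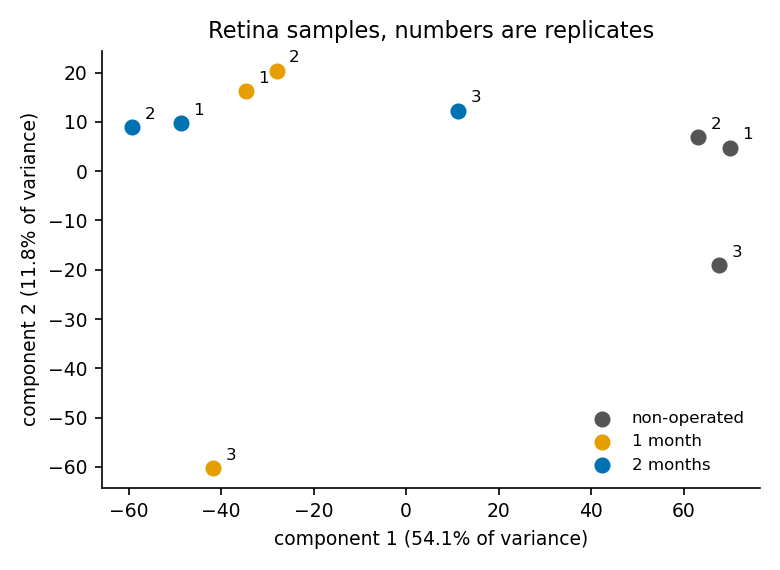
Principal components 1 and 2 of log2 CPM for the 9 retina samples, with each point a sample, its number the replicate and its colour the group. Replicate 3 at 2 months lies at 11.3 on component 1, between the non-operated samples, at 63.2 to 70.0, and the other treated samples, all at -28.0 or lower.

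At 2 months 1304 genes, or 8.21% of those tested, were higher than in non-operated retina, and 474 genes, or 2.99%, were lower (edgeR quasi-likelihood test, adjusted p under 0.05). The genes that rose changed by more than those that fell. Among the higher genes the median log2 fold change was 1.5, with quartiles of 0.85 and 2.74, and 886 genes (67.9%) changed over 2-fold and 505 over 4-fold. Among the lower genes the median was -0.74, with quartiles of -0.97 and -0.54, and 111 genes (23.4%) changed over 2-fold and 21 over 4-fold. For all genes tested the median was 0, and 12.5% differed over 2-fold. The 2 groups did not overlap for 1285 of the higher and 469 of the lower genes. Over all genes tested, whether called or not, every 2-month sample lay above every non-operated sample for 16.1% and below for 15.3%.

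These counts depended on single libraries. Without 2-month replicate 3 there were 2357 higher and 1953 lower genes, without replicate 1 there were 629 and 71, and without replicate 2 there were 602 and 71. Without non-operated replicate 1 the counts were 653 and 91, without replicate 3 they were 700 and 154, and without replicate 2 they were 879 and 347. Higher genes made up 73.3% of the calls with all samples, 54.7% without 2-month replicate 3 and 62.1% by DESeq2.

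**Figure D2:**
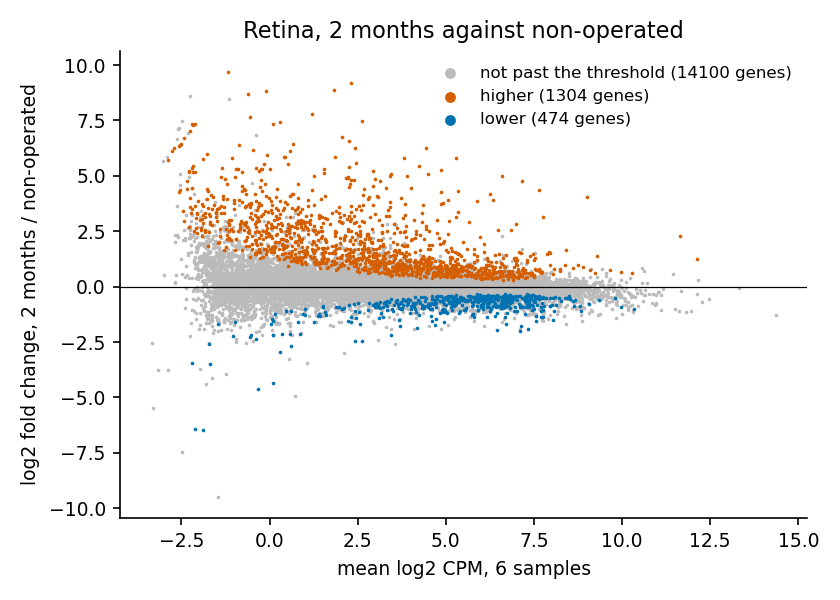
Log2 fold change of 2 months against non-operated retina plotted against the mean log2 CPM of the 6 samples, with each point a gene. The 1304 higher genes spread widely at low levels, and the 474 lower genes lie at higher levels and closer to 0.

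The higher and lower genes differed in level. Levels are given as CPM, the counts of a gene scaled to a common library size. The median level over the 6 samples was 2.90 log2 CPM for the higher genes, 5.68 for the lower genes and 4.28 for all genes tested. The genes were divided by level into 4 bins of equal size. In the bin with the lowest levels, up to 1.97 log2 CPM, 401 genes (10.1%) were higher and 41 (1.03%) lower. In the bin with the highest levels, from 5.91 log2 CPM upwards, 223 genes (5.62%) were higher and 209 (5.26%) lower. The excess of higher over lower genes thus lay at low and middle levels, and the top bin held similar numbers in each direction. The median log2 fold change of the higher genes went from 2.57 in the lowest bin to 0.76 in the highest, and that of the lower genes from -1.61 to -0.61.

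The most abundant transcripts of the non-operated retina made up less of the 2-month libraries, although few of them passed the test gene by gene. The 10 genes with the most counts in non-operated retina took 8.54%, 8.28% and 8.59% of gene counts there. At 2 months they took 4.79%, 4.36% and 7.22%. All 2-month samples lay below all controls, with replicate 3 the closest to them. The means were 5.46% ± 1.54 and 8.47% ± 0.166 (SD, n = 3 each; two-sided exact permutation test, p = 0.1, the smallest that 3 against 3 allows). The genes were chosen on the non-operated samples, which favours a lower share elsewhere. Of these 10 genes 9 had a negative log2 fold change, with a median of -0.85, and none was called by edgeR, while 3 had an unadjusted p under 0.05 and DESeq2 called 3 of them lower. Of the 100 most abundant genes 89 had a negative log2 fold change, with a median of -0.48, while 3 were called higher and 3 lower. Of the 500 most abundant, 385 had a negative one, with a median of -0.26, and 10 were called higher and 32 lower.

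At the other end of the range, more genes were detected at 2 months. A level of at least 1 CPM was reached by 13989, 14052 and 13805 genes at 2 months and by 13512, 13466 and 13545 genes in non-operated retina. Every 2-month sample lay above every control, again with replicate 3 the closest to them, and the means differed by 441 genes (two-sided exact permutation test, p = 0.1). Genes with any count numbered 19602, 19303 and 19088 against 18991, 18619 and 19396, and these ranges overlapped (two-sided exact permutation test, p = 0.3).

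Few genes went from no counts to a clear signal. At least 1 count in each 2-month sample and none in any control was found for 148 genes, and the reverse for 51. A minimum of 10 counts in each 2-month sample left 5 of the 148. Against a floor of 3 counts per library these 5 genes were at least 4.87-fold to at least 33.1-fold higher, with no level above 5.14 CPM, and 4 of them passed the test. All 5 were also present in every 1-month sample. In the reverse direction 1 gene had at least 10 counts in every control and none at 2 months, which was at least 28.4-fold lower. It was also at 0 in every 1-month sample, and it did not pass the test. These counts and floors cover counting error only.

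Each 2-month sample shared the direction of the change, at different sizes. For the 1304 higher genes the median difference from the non-operated mean was 1.48, 1.70 and 0.96 log2 CPM in 2-month replicates 1, 2 and 3. The non-operated samples themselves had medians of 0, 0.04 and -0.03. For the 474 lower genes the medians at 2 months were -0.85, -0.90 and -0.51. Replicate 3 thus had the smallest difference of the 3 in both lists and was still clear of the controls. In the 1-month samples, which share these controls, the medians were 1.4, 1.26 and 1.5 for the higher and -0.75, -0.71 and -0.82 for the lower genes. Over all genes tested the median of every retina sample lay between -0.02 and 0.01. Since the lists were called on these samples, the medians describe the genes and test nothing.

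**Figure D3:**
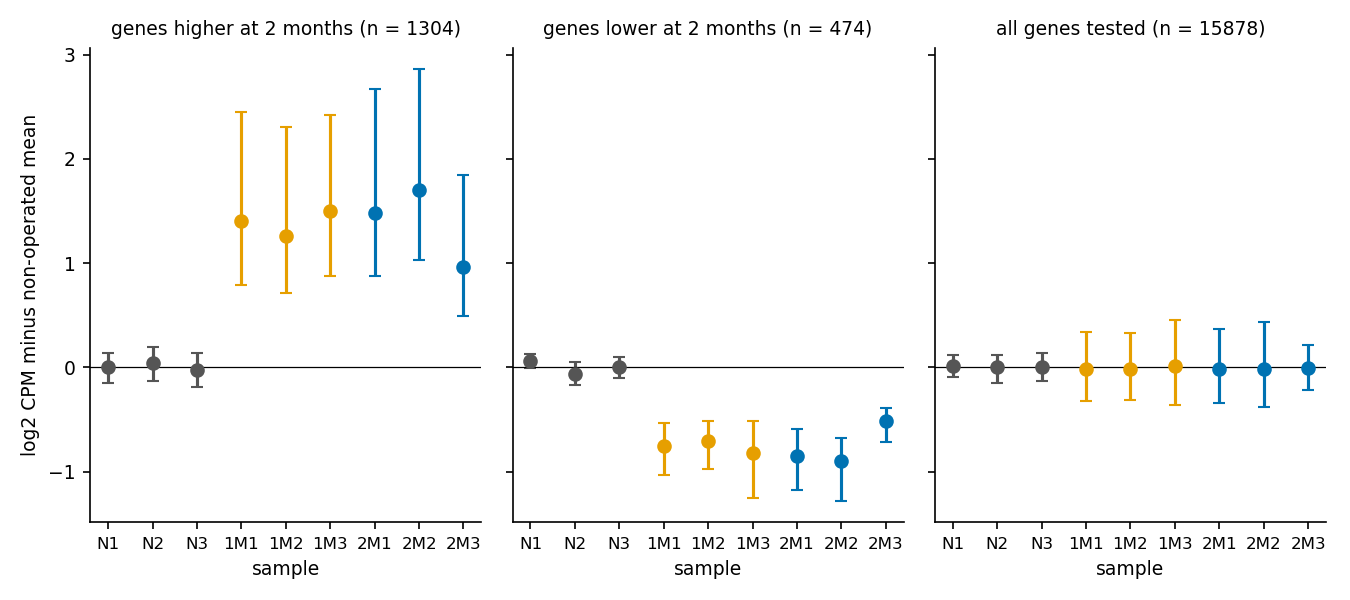
Median (points) and quartiles (bars) of the difference in log2 CPM from the non-operated mean, for genes higher, genes lower and all genes tested, in non-operated (N), 1-month (1M) and 2-month (2M) retina samples. At 2 months replicate 3 has medians of 0.96 and -0.51, closer to 0 than replicates 1 and 2, and the medians of all genes lie near 0 in every sample.

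Gene by gene, replicate 3 was usually the 2-month sample nearest to the controls. This was so for 1096 of the 1304 higher genes (84%), against 148 genes for replicate 1 and 60 for replicate 2. Among the lower genes it was so for 372 of 474 (78.5%). Among all genes tested the share was 59.2%. Each replicate was also set alone against the 3 non-operated samples. Replicate 3 alone gave 195 higher and 11 lower genes, replicate 1 alone 1027 and 406, and replicate 2 alone 1519 and 851. In such fits the lone sample is assumed to vary like the other groups.

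Among the 2-month samples, similarity of whole profiles to the controls followed the same order. Across genes, which are not independent replicates, the log2 CPM of 2-month replicates 1 and 2 had a Pearson correlation of 0.991 with each other. Replicate 3 had correlations of 0.964 and 0.958 with them and of 0.966, 0.970 and 0.966 with the non-operated samples. With 1-month replicates 1, 2 and 3 its correlations were 0.972, 0.973 and 0.957. By correlation it was thus closest to 1-month replicates 1 and 2, ahead of the controls. For replicate 1 the correlations with the non-operated samples were 0.937, 0.943 and 0.936. The median absolute difference of log2 CPM was 0.171 between replicates 1 and 2, and 0.317 and 0.359 between each of them and replicate 3. From replicate 3 to the non-operated samples it was 0.243 to 0.262, and to the 1-month samples 0.267 to 0.378. Among the non-operated samples it was 0.196 to 0.246. Replicate 3 was thus closer to the controls by this measure than to the other 2-month samples. The closest pair, replicates 1 and 2, still differed by 14.7 times the counting noise (chi-square per degree of freedom), so no sample was counted as a repeat of another.

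Replicate 3 was also set against replicates 1 and 2 directly. It was higher for 93 genes (0.586% of those tested) and lower for 95 (0.598%) by edgeR at an adjusted p under 0.05, with the replicates as separate groups among the 9 retina samples. With the 1-month samples left out of the fit these counts were 602 and 526, and by DESeq2 they were 369 and 553. The 93 genes had a median log2 difference of 1.51, with 76 over 2-fold. Their median levels were 3.98 and 3.93 log2 CPM in replicates 1 and 2, 5.56 in replicate 3, 5.43 in non-operated retina and 4.71 at 1 month. The non-operated mean was above replicates 1 and 2 for 92 of these 93 genes, against 51.9% of all genes tested, and it was nearer to replicate 3 for 82 of them (88.2%), against 68.5% of all genes. The 95 genes lower in replicate 3 mirrored this pattern. Their median levels were 4.94, 5.18 and 3.41 log2 CPM in replicates 1, 2 and 3, 2.63 in non-operated retina and 4.28 at 1 month, and the non-operated mean was below replicates 1 and 2 for 92 of them. For the genes called here, the non-operated retina thus lay on the side of replicate 3. The 1-month medians, too, lay between replicate 3 and its partners. These genes were chosen because replicates 1 and 2 differed from replicate 3, which favours other samples lying on its side. The shares of all genes are thus no baseline for them, and the values describe these genes and test nothing. The replicates were divided because replicates 1 and 2 had more multi-mapped reads, a property of the libraries, so this contrast compares 3 samples and not 2 conditions.

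The percentage of multi-mapped reads, those aligned to several places, differed between these replicates by the way they were divided and is given as a description. It was 11.66% and 11.09% in 2-month replicates 1 and 2 and 8.44% in replicate 3. In non-operated retina it was 9.38%, 8.08% and 8.75%, and at 1 month 8.57%, 8.12% and 8.45%. Replicate 3 lay within the range of the controls, and replicates 1 and 2 lay above every other retina sample. The group means were 10.4% ± 1.72 and 8.74% ± 0.652 (SD, n = 3 each; two-sided exact permutation test, p = 0.3). The same numbering stood out in the RPE-choroid at 2 months, with 13.67%, 13.22% and 9.96% against 9.01%, 9.32% and 8.03% without operation. With this share as a covariate the retina comparison gave 410 higher and 54 lower genes. Its part in the result was not tested.

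**Figure D4:**
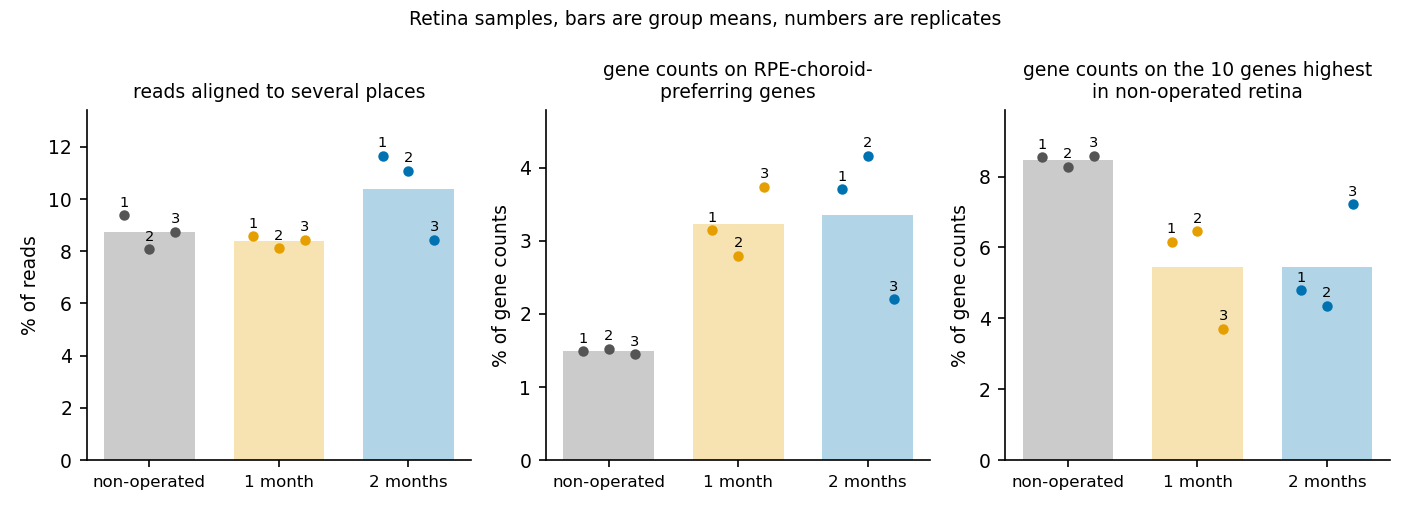
Shares in the 9 retina samples of reads aligned to several places, of gene counts on genes over 4-fold higher in non-operated RPE-choroid than in retina, and of gene counts on the 10 genes highest in non-operated retina, with bars as group means and points as samples numbered by replicate. Replicate 3 at 2 months lies nearest to the non-operated samples in all 3 measures among the 2-month samples.

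Many of the genes that rose were genes that the neighbouring tissue expresses more strongly. Genes over 4-fold higher in non-operated RPE-choroid than in non-operated retina numbered 1745 among those tested. Of these, 627 (35.9%) were higher at 2 months and 10 (0.6%) lower, and the median log2 fold change was 0.95. Of the 13636 genes within 4-fold between the tissues, 655 (4.8%) were higher and 425 (3.1%) lower, with a median of -0.04. Of the 497 genes over 4-fold higher in retina, 22 (4.4%) were higher and 39 (7.8%) lower, with a median of -0.24. The classes used the same non-operated retina samples as the comparison, so a gene that was low there by chance was more likely to be in the first class and to be called higher. Classes chosen at 1 month, which used none of the 6 samples, gave 93 higher and 7 lower among 573 RPE-choroid-preferring genes (16.2% and 1.2%), with a median of 0.67. Among the 64 retina-preferring genes of that choice 20 were higher and 0 lower by edgeR, with a median of 1.01. Of the 64, 4 were lower at an unadjusted p under 0.05, and 2 by DESeq2. The direction of the retina-preferring class thus depended on where it was chosen. The choice at 1 month had a bias of its own, since the genes higher at 2 months were mostly raised at 1 month too. A gene raised at both times was more likely to be retina-preferring by that choice, and less likely to be RPE-choroid-preferring.

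As a share of gene counts, the RPE-choroid-preferring genes took 3.705%, 4.165% and 2.206% at 2 months. In non-operated retina they took 1.49%, 1.526% and 1.451%. The 2-month samples all lay above the controls, and replicate 3 was the lowest of them. The means were 3.36% ± 1.02 and 1.49% ± 0.0371 (SD, n = 3 each; two-sided exact permutation test, p = 0.1). In the non-operated RPE-choroid itself these genes took 21.561%, 27.977% and 11.713%. With the list chosen at 1 month the means were 0.491% and 0.307%. In bulk tissue, a different number of cells of a type and a different amount of RNA per cell cannot be told apart, nor can a change in the retina and the presence of adjoining tissue, and the part of adjoining tissue in the counts was not tested.

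The 655 higher genes within 4-fold between the tissues had median differences of 1.01, 1.12 and 0.58 log2 CPM from the non-operated mean in 2-month replicates 1, 2 and 3. With a 2-fold line instead, 365 higher genes lay within it and 856 were RPE-choroid-preferring. The values here are for the 4-fold line. The levels of these 655 genes were above those of the higher RPE-choroid-preferring genes, with medians of 3.6 to 3.64 log2 CPM in the controls against 0.36 to 0.44. The RPE-choroid-preferring class was set by a low level in these same controls relative to RPE-choroid, which favours this difference. When the RPE-choroid-preferring genes were left out before the fit, 552 genes were higher and 226 lower. Of the 1304 higher genes, 588 (45.1%) had a 2-month retina mean above the mean of non-operated RPE-choroid, as did 53.2% of all genes tested. For 361 (27.7%) every 2-month retina sample lay above every non-operated RPE-choroid sample, against 23% of all genes. Among the 505 genes that rose over 4-fold this held for 113 (22.4%). The share of higher genes above the range of the non-operated RPE-choroid was thus close to the share of all genes. Against the 2-month RPE-choroid the shares differed. There 410 higher genes (31.4%) had a 2-month retina mean above the 2-month RPE-choroid mean, against 54.5% of all genes. Among the genes that rose over 4-fold it was 26.9%. Of the 474 lower genes, 417 (88%) had a lower mean in non-operated RPE-choroid than in non-operated retina, against 55.7% of all genes. The same non-operated retina samples served in calling these genes lower. A gene that was high there by chance was thus more likely to be called lower and to exceed the RPE-choroid.

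A few genes show the range of the changes. They were chosen by size among genes past the test with a mean of at least 3 log2 CPM and no overlap between the groups, and only 2 in each direction are given since their names are not known. ENSOCUG00000005445 had the largest increase, with 297, 272 and 59.2 CPM at 2 months and 3.39, 2.78 and 2.08 CPM in non-operated retina. Replicate 3 was well below replicates 1 and 2 and far above every control. The log2 fold change was 6.27 (SE 0.92, edgeR adjusted p = 0.00635). At 1 month the gene had 98.0, 110 and 21.3 CPM, with a log2 fold change of 4.82 against the controls (edgeR adjusted p = 0.0117). With replicate 3 as the lone 2-month sample the log2 fold change was 4.44 and the gene did not pass the test (edgeR adjusted p = 0.107). ENSOCUG00000005445 belonged to the RPE-choroid-preferring genes, with 56.0, 96.5 and 74.3 CPM in non-operated RPE-choroid, and replicates 1 and 2 of the 2-month retina were above that range.

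ENSOCUG00000007680 was alike, with 146, 132 and 51.9 CPM at 2 months and 1.81, 2.82 and 1.34 CPM in non-operated retina. Again replicate 3 was the lowest 2-month sample and the groups did not overlap. The log2 fold change was 5.82 (SE 0.78, edgeR adjusted p = 0.00421), and with replicate 3 as the lone 2-month sample it was 4.73 and did not pass the test (edgeR adjusted p = 0.102). This gene, too, was RPE-choroid-preferring, with 11.2, 42.4 and 47.5 CPM in non-operated RPE-choroid, and all 3 of the 2-month retina samples were above these values. At 1 month the retina had 106, 101 and 21.3 CPM.

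ENSOCUG00000014571 had the largest decrease by this rule, with 4.65, 4.25 and 7.65 CPM at 2 months and 11.4, 41.7 and 22.9 CPM in non-operated retina. The controls differed widely from each other, and the lowest of them was above the highest 2-month sample, replicate 3. The log2 fold change was -2.17 (SE 0.42, edgeR adjusted p = 0.0126). The 1-month samples, with 4.84, 5.14 and 4.95 CPM, were close to the 2-month samples. ENSOCUG00000011626, a retina-preferring gene, had 58.7, 53.4 and 101 CPM at 2 months and 400, 273 and 187 CPM in non-operated retina. Here replicate 3 was the 2-month sample nearest to the controls, without reaching them. The log2 fold change was -1.99 (SE 0.38, edgeR adjusted p = 0.0144), and the 1-month samples had 85.4, 85.0 and 42.4 CPM. Neither of these genes passed the test with 2-month replicate 1 or 2 left out, when the log2 fold changes lay between -2.06 and -1.82. Nor did ENSOCUG00000014571 pass with the multi-mapped share as a covariate (-1.45, edgeR adjusted p = 0.159) or with 2-month replicate 3, 2 or 1 alone (edgeR adjusted p = 0.451, 0.0582 and 0.0826). ENSOCUG00000011626 did not pass with that covariate (-1.75, edgeR adjusted p = 0.128) or with replicate 3 or 1 alone (edgeR adjusted p = 0.443 and 0.0699).

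**Figure D5:**
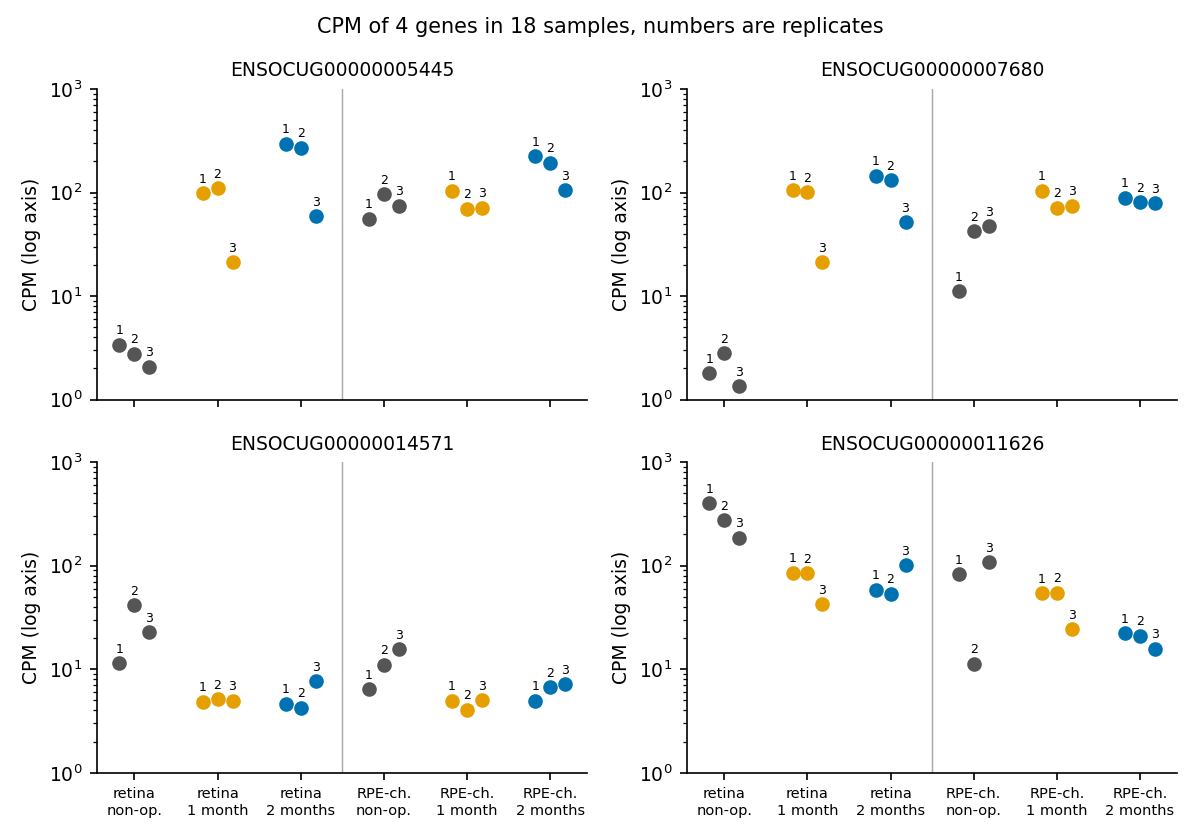
CPM (log axis) of the 4 genes in all 18 samples, retina at the left and RPE-choroid at the right of the line, with points numbered by replicate. ENSOCUG00000005445 and ENSOCUG00000007680 lie at 1.34 to 3.39 CPM in non-operated retina and at 51.9 CPM or more in every 2-month retina sample.

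The 2-month retina was also set against the retina at 1 month. Only 1 gene was higher at 2 months (0.0063% of those tested) and 0 were lower by edgeR at an adjusted p under 0.05, while 296 and 345 had an unadjusted p under 0.05 and DESeq2 called 36 and 31. That gene, whose identifier was not chosen by the rule, had 187, 162 and 172 CPM at 2 months, 62.0, 70.2 and 61.4 CPM at 1 month and 117, 132 and 104 CPM without operation. The 3 groups did not overlap, with the 1-month samples lowest and the 2-month samples highest. The log2 fold change from 1 to 2 months was 1.43 (SE 0.12, edgeR adjusted p = 0.00332) and that against the controls 0.58 (edgeR adjusted p = 0.0111). Without 2-month replicate 3, 34 genes were higher and 38 lower than at 1 month, and without 1-month replicate 3 the counts were 9 and 3. Without 1-month replicate 1 no gene was higher. Against the same non-operated samples, which both comparisons share, the 1-month retina had 1731 higher genes (10.9%) and 1123 lower genes (7.07%).

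The spread between replicates was larger at 2 months than in the other groups. The median SD of log2 CPM over genes was 0.237 at 2 months, 0.186 in non-operated retina and 0.196 at 1 month, and between 2-month replicates 1 and 2 it was 0.121.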

How the data were processed

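RNA sequencing libraries of rabbit retina were made with a directional kit. The authors trimmed reads with Trim Galore, aligned them with HISAT2 to OryCun2.0 and counted reads per gene with HTSeq, and the deposited values are raw counts. The labels' processing fields name human builds for these samples, while the methods give OryCun2.0 for rabbit. The strand setting of the counting, and any tool versions, were not given in the sources used here, so antisense and overlapping genes could not be told apart. Lines for reads aligned to several places, without a gene, ambiguous, of low quality or not aligned were kept out of library sizes and tests, and they held 49.54% to 52.91% of all reads in the 9 retina samples.

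Counts were tested in R 4.3.3 with edgeR 4.0.16 (TMM normalisation, robust quasi-likelihood test, Benjamini-Hochberg adjusted p under 0.05). Genes were kept by edgeR's filter (about 10 counts or more in as many samples as the smallest group holds, at least 15 in all), and the 9 retina samples shared 1 estimate of the spread (biological coefficient of variation 0.234). DESeq2 1.42.0 was an alternative. SEs were derived from the F statistic. Single values were compared by exact permutation.

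None of the 38822 entries of the RefSeq gene table of mOryCun1.1 matched an identifier. The marker and pathway lists were therefore not run and no sequence is shown. Named genes were the 2 largest changes in each direction among genes with an adjusted p under 0.05, a mean of at least 3 log2 CPM (prior count of 2) and no overlap. The rule did not fix the prior. With 0.5 CPM added to each value instead, 0 of the 2 genes that rose and 2 of the 2 that fell were the same. The comparison, its lists and its tests were chosen with earlier results of these data known.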

Additional observations from a re-analysis of the deposited data

Results flagged for a closer look

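The retina at 2 months and at 1 month differed by edgeR's test of the difference itself for 1 higher gene, with 162 to 187 CPM at 2 months and 61.4 to 70.2 CPM at 1 month.

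ENSOCUG00000005445 changed more in retina than in RPE-choroid. The difference of the log2 fold changes at 2 months was 5.10 (SE 0.86, edgeR adjusted p = 0.0223 in a fit of all 18 samples), while the RPE-choroid had a value of 1.22 on the log2 scale, which did not pass the test (edgeR adjusted p = 0.315). Its RPE-choroid levels were 223, 195 and 105 CPM at 2 months and 56.0, 96.5 and 74.3 CPM without operation. For ENSOCUG00000007680 the difference was 4.53 (SE 0.85, edgeR adjusted p = 0.0334), while the RPE-choroid had 1.32 on that scale, which did not pass the test (edgeR adjusted p = 0.375). Its RPE-choroid levels were 89.2, 80.3 and 78.9 CPM at 2 months and 11.2, 42.4 and 47.5 CPM without operation. Of the 16846 genes tested in that fit, the change in retina was more positive for 80 and more negative for 8. For ENSOCUG00000014571 and ENSOCUG00000011626 the difference between tissues did not pass the test (edgeR adjusted p = 0.533 and 0.993). The test for a single outlying value was not run, since it needs groups of at least 4 samples.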

How the results depend on the processing

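For 2 months against non-operated, higher genes outnumbered lower genes in every alternative that was run, and the differences in shares below kept their sign. In the other comparisons below, the direction with more genes changed in some alternatives. For 2 months against non-operated, RLE and upper-quartile normalisation, a stricter filter, no filter and a fit of these 6 samples kept both counts within 1.5 times. DESeq2 gave 1110 lower genes, 2-month replicate 2 alone 851, and the replicate block 919 higher and 267 lower, of which 881 and 221 were also called without it. Correlations of same-numbered deviations were -0.011, 0.041 and 0.05. They cannot show whether equal replicate numbers share an animal, which the sources used here do not say. The multi-mapped share as a covariate gave 410 and 54, and 2-month replicate 3 alone 195 and 11. Higher genes were 88.4% of the calls with the covariate and 94.7% with replicate 3 alone. In alternatives chosen after seeing the data, replicates 1 and 2 as their own group gave 2322 and 1944, and leaving out RPE-choroid-preferring genes 552 and 226. Leaving out 1 sample at a time gave 602 to 2357 higher and 71 to 1953 lower genes. For 2 months against 1 month, DESeq2 gave 36 and 31, the covariate 4 and 1, and leaving out samples 0 to 34 and 0 to 38. For replicate 3 against replicates 1 and 2, DESeq2 gave 369 and 553, no filter 163 and 197, and the 6 samples alone 602 and 526. The difference in multi-mapped share, 1.66 percentage points, ranged from 1.03 to 2.64 with samples left out. That in RPE-choroid-preferring counts, 1.87 points, ranged from 1.47 to 2.45, and was 3.5 with a 2-fold list and 0.183 with the 1-month list. The causes were not tested. With 3 samples a group, a permutation test cannot give a p below 0.1.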
